A study of Homo sapiens with 6 samples.

Results

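Proneural basic helix-loop-helix (bHLH) factors are transcription factors that push neural progenitors out of the cell cycle and into neuronal differentiation. They pair with ubiquitous E proteins, bind DNA at E-boxes of the form CANNTG, and act in cascades in which neurogenins switch on NEUROD factors. ID proteins titrate away their partners and HES repressors, effectors of Notch signaling, hold their genes down. The 8 genes described here are the neurogenins NEUROG1, NEUROG2 and NEUROG3, the later factors NEUROD1, NEUROD2, NEUROD4 and NEUROD6, and BHLHE22, an Olig-related bHLH repressor of neuronal subtypes. They are 8 of the 19970 protein-coding genes that RefSeq places on the autosomes and chromosome X, and were chosen by name. A peak or region was assigned to a gene when it overlapped the gene's RefSeq span (GRCh38) extended by 5 kb on each side, by at least 1 bp.

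All libraries were made from D283 cells, an established line of Group 3 medulloblastoma, a cerebellar tumor of childhood, kept as floating tumorspheres in neural precursor medium with FGF and EGF. In OTX2low cells the homeodomain factor OTX2 was silenced with 30 nM siRNA, and OTX2high cells received a scramble siRNA that silences no gene. H3K4me3, a histone mark found at promoters that are active or poised, and H3K27me3, the Polycomb mark of repressed developmental genes, were each profiled by ChIP-seq in 1 library per condition. There is thus no replicate check on any difference. The counting intervals given below cover counting error only. PCR copies of a molecule are not independent reads, and the authors named the reads behind the differential regions as deduplicated. In bulk chromatin, a mark gained in every cell and a mark present in more of the cells cannot be told apart, and all data come from 1 cell line.

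The H3K4me3 libraries held 20914582 tags in OTX2low and 33137731 tags in OTX2high. The H3K27me3 libraries held 33885628 tags in the one labelled OTX2low and 40271458 tags in the one labelled OTX2high. The headers of these H3K27me3 peak lists name the condition opposite to their sample labels. The lists are therefore named by their label, and no direction between conditions is taken from them. H3K27me3 directions follow the condition names of the authors' differential table, whose read depths go with the header names. These directions would reverse if the sample labels were right. The title and the silencing label of each IgG library also disagree, so both IgG libraries were put in no group. An H3K4me3 peak lay at 7 of 7 Group 3 medulloblastoma genes in both lists, OTX2 included, and at 4 of 4 neuronal genes. Peaks also lay at astrocyte genes (3 of 3 in both lists), oligodendrocyte genes (1 of 3 in both), immune genes (2 of 4 in OTX2low and 3 of 4 in OTX2high), endothelial genes (2 of 3 in both) and muscle and mesenchyme genes (3 of 4 in both). Over all protein-coding genes, 75.7% had an H3K4me3 peak in OTX2low and 77% in OTX2high, so these counts say little about cell identity. Such windows can also hold neighbouring promoters. The silenced gene OTX2 had 1768 normalized H3K4me3 reads in OTX2low and 3119 in OTX2high in its region with the most reads, which does not measure its transcript.

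The proneural genes fell into different chromatin states in these tumorspheres. NEUROD1 and NEUROG1 carried H3K4me3 in both conditions and no H3K27me3 peak in either list, a pattern held by 54.7% of genes. NEUROD2 and NEUROG2 had peaks in all 4 lists, as did 11.5% of genes. BHLHE22 had H3K4me3 in both conditions and H3K27me3 in the list labelled OTX2high alone. NEUROG3 lay in an H3K27me3 domain in both lists and had weak H3K4me3 in OTX2high alone. NEUROD4 had scattered H3K27me3 peaks and no H3K4me3 peak. NEUROD6, a factor of cortical projection neurons, had no peak in any list, as did 13.1% of genes.

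**Figure D1:**
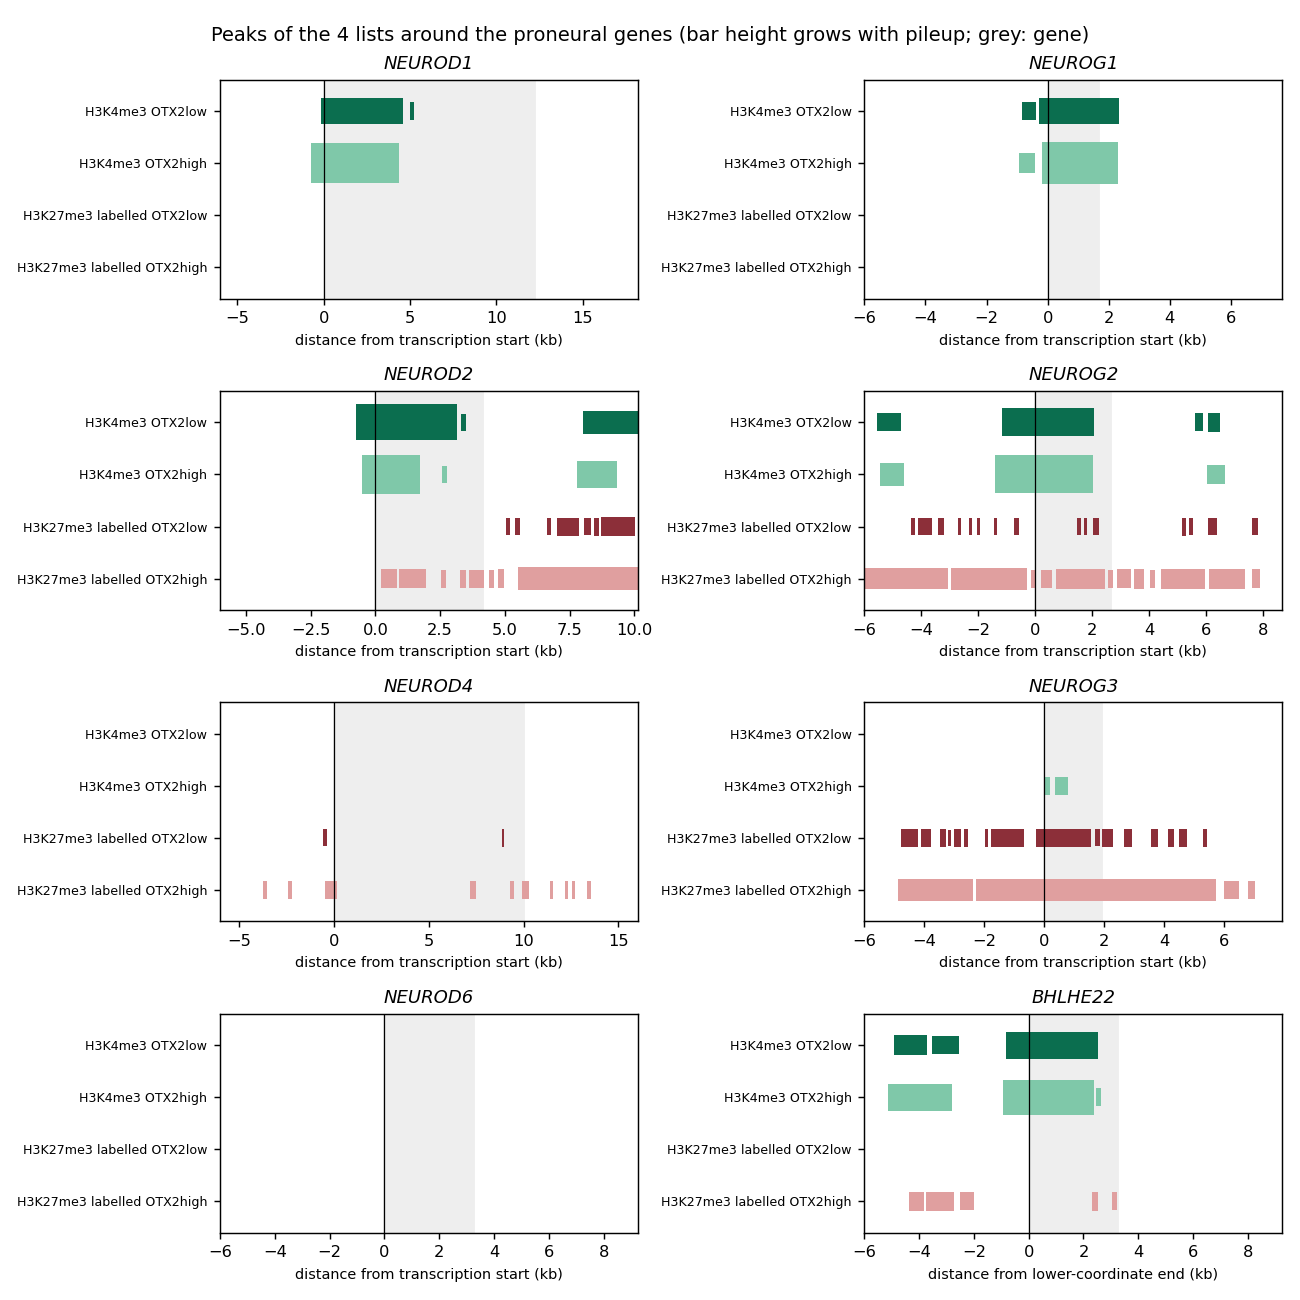
Peaks of the 4 lists around each of the 8 genes, with distance from the transcription start in kb on the horizontal axis and 1 row per list; the grey band is the gene, bars are peaks, and a taller bar has a higher pileup. For BHLHE22, whose strand the gene table does not give, distance runs from its lower-coordinate end; H3K4me3 bars sit over the start at NEUROD1, NEUROD2, NEUROG1 and NEUROG2, and NEUROD6 has no bar.

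Counted over the family, 5 of 8 genes had an H3K4me3 peak in OTX2low and 6 of 8 in OTX2high, beside 75.7% and 77% of all protein-coding genes. An H3K27me3 peak lay at 4 of 8 genes in the list labelled OTX2low and at 5 of 8 in the list labelled OTX2high, beside 19.8% and 29.5%. Among the 6532 protein-coding genes no longer than the longest of the family (12223 bp, NEUROD1), these shares were 60.8%, 61.7%, 23% and 32.6%. In peaks, the family held 14 of the 28824 H3K4me3 peaks of OTX2low and 14 of the 33201 of OTX2high. It held 40 of 102810 H3K27me3 peaks in the list labelled OTX2low and 39 of 158878 in the list labelled OTX2high.

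Promoter sequences of 6 members are printed as examples of the states, which were read over the extended gene spans. The genes are NEUROD1 and NEUROG1 with H3K4me3 alone, NEUROD2 and NEUROG2 with both marks, NEUROG3 in an H3K27me3 domain, and NEUROD6 with neither. Each sequence is the 250 bases before the RefSeq start (GRCh38.p14), 5′ to 3′ on the minus strand, on which all 6 genes lie. The printed NEUROD2 bases lay under H3K4me3 peaks in both conditions and under no H3K27me3 peak. For NEUROG2, 141 of the 250 bases were covered by H3K27me3 peaks of the list labelled OTX2high, and none by those of the other list. Capitals mark E-boxes (CANNTG, which reads the same pattern on both strands). The intervals are chr2:181680518-181680767 for NEUROD1, chr5:135535965-135536214 for NEUROG1, chr17:39607921-39608170 for NEUROD2, chr4:112516181-112516430 for NEUROG2, chr10:69573423-69573672 for NEUROG3 and chr7:31340727-31340976 for NEUROD6.
NEUROD1: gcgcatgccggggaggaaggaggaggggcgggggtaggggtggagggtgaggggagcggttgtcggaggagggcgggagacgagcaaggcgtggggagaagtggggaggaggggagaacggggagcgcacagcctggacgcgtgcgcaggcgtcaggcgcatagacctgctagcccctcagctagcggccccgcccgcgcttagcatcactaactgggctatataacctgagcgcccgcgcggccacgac
NEUROG1: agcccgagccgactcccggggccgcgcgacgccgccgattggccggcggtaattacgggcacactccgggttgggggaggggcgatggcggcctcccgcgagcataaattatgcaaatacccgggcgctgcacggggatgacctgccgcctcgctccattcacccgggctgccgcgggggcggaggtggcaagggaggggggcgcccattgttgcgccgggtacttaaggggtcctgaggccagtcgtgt
NEUROD2: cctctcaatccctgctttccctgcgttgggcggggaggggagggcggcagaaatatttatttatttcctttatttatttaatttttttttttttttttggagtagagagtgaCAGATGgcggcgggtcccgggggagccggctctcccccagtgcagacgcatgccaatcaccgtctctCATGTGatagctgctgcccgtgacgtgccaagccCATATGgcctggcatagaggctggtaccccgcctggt
NEUROG2: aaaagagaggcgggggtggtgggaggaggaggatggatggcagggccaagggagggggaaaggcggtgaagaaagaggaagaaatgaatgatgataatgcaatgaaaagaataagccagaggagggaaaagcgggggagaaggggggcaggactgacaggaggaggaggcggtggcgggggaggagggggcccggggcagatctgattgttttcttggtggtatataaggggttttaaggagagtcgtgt
NEUROG3: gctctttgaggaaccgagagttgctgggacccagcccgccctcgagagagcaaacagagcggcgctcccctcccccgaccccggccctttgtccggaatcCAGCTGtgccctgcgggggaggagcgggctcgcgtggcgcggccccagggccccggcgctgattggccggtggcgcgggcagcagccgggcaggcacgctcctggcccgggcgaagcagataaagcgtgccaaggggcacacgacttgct
NEUROD6: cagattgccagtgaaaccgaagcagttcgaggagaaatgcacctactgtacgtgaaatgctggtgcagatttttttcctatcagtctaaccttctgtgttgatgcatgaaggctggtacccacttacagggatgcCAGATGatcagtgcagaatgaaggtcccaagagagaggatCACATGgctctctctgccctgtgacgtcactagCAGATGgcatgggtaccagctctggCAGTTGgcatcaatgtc

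CpG density differed between these windows. NEUROD1 had 24 CpG dinucleotides at 70% GC and NEUROG1 had 30 at 70.4% GC, against a median of 11 CpG and 58% GC over 35116 promoters of the same length. NEUROD2 had 12 CpG, NEUROG2 had 7 and NEUROD6 had 4. NEUROG3, whose window lay wholly under H3K27me3 peaks in both lists, had 25 CpG at 72% GC, and NEUROD4 had 6. NEUROG1, NEUROG3 and NEUROD1 were thus the members richest in CpG, and they differ in their marks. A promoter window was found for 7 of the 8 genes.

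E-boxes were present in 4 of these 7 windows: 4 in NEUROD6, 3 in NEUROD2, 2 in NEUROD4 and 1 in NEUROG3. At least 1 E-box occurred in 61.8% of the 35116 promoters. The form CAGATG or its complement CATCTG, present in 12.2% of promoters, occurred in NEUROD6 (2 matches) and NEUROD2 (1 match). The form CAGCTG, present in 14% of promoters, occurred in NEUROD4 and NEUROG3. No window held TAATCC or its complement GGATTA, the core letters read by OTX-class homeodomains, which occurred in 5.62% of promoters. A match is a description of letters, and the absence of one covers these 250 bases alone.

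**Figure D2:**
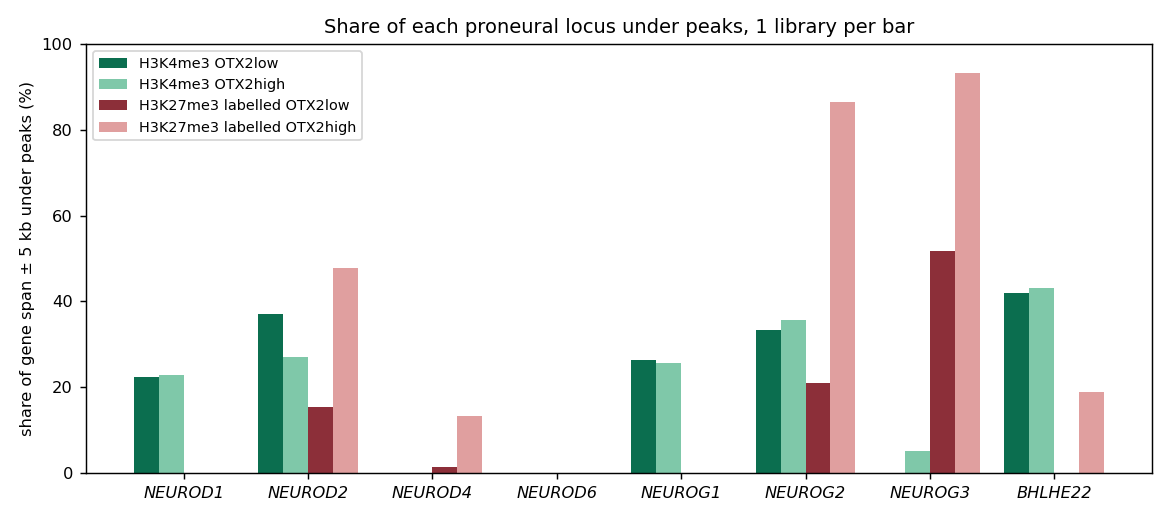
Share of each gene's span extended by 5 kb that lay under peaks (vertical axis, %), with 1 bar per list and 1 library behind each bar. H3K27me3 of the list labelled OTX2high covers 93.3% of the NEUROG3 window and 86.4% of the NEUROG2 window, and none of NEUROD1, NEUROD6 and NEUROG1.

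Differences between the conditions were read from regions that the authors listed as differential, in normalized reads. Each is given as log2 of OTX2low over OTX2high, so a positive value is higher in OTX2low. The authors' own log2 column runs the other way, with OTX2high over OTX2low. Over all protein-coding genes with a listed region, the median log2 ratio was -0.52 for H3K4me3 over the 10752 genes with reads in both libraries, and -0.53 over all 11311 with genes at 0 reads set to their bound. It was 0.33 for H3K27me3 (2312 genes), so values are also set against these medians. Genes without a listed region enter neither median, so neither is a centre of all genes. The H3K27me3 ratios of listed genes form groups of opposite sign, with quartiles of -0.54 and 0.40. Their median thus lies inside the positive group.

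For H3K4me3, 2 of the 8 genes were higher in OTX2low (NEUROD2 and NEUROD4), beside 6.37% of all genes. Another 3 were higher in OTX2high (NEUROD1, NEUROG1 and BHLHE22), beside 43.5%. No differential region was listed for NEUROG2, NEUROG3 and NEUROD6. After recentring on the median over genes the counts by sign were again 2 and 3, beside 18.9% and 24.4%, but the intervals of all 3 genes on the OTX2high side hold the median, so none of the 3 was set apart from it. H3K4me3 was at least 2-fold higher in OTX2low at 1 of the 8 (NEUROD4, with 15 reads against 2 and outside every peak), beside 5.33% of genes, with NEUROD2 just under 2-fold. It was at least 2-fold higher in OTX2high at 0 of the 8, beside 7.42%. For H3K27me3, 3 of the 8 were higher in OTX2low (NEUROD2, NEUROG2 and BHLHE22), beside 7.7% of all genes, and 0 were higher in OTX2high, beside 3.6%. Among genes with a listed H3K27me3 region, 66.5% were higher in OTX2low, and 79.5% of those no longer than NEUROD1. The direction of the 3 listed members was thus the common one. Recentred, the H3K27me3 counts by sign were again 3 and 0, beside 5.36% and 5.49%, with the interval of NEUROD2 holding the median. Among the genes no longer than NEUROD1, H3K4me3 was higher in OTX2low at 5.11% and higher in OTX2high at 33.2%, and H3K27me3 at 9.08% and 2.31%. With 1 library per condition, these counts describe the 2 libraries and have no test over replicates.

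**Figure D3:**
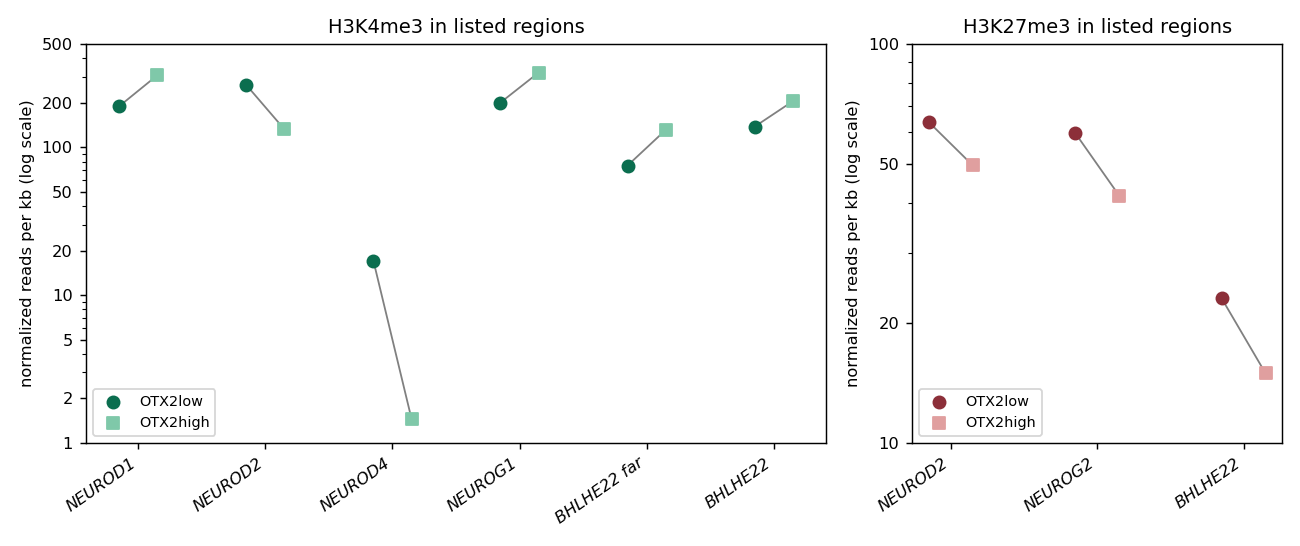
Normalized reads per kb (vertical axis, log scale) of OTX2low and OTX2high in each listed region of the family, 1 library per point; "BHLHE22 far" is the region farther from the gene. NEUROD2 is above in OTX2low for both marks, while NEUROD1, NEUROG1 and BHLHE22 are below in OTX2low for H3K4me3.

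NEUROG1, which in mice specifies sensory and cerebellar neurons, had strong H3K4me3 over its whole transcription unit. Its highest peak was 2622 bp wide with a pileup of 62 in OTX2low, and 2490 bp wide with a pileup of 153 in OTX2high. Pileups and folds are the authors' own values for each list and are not compared between libraries. The listed region at chr5:135533401-135536400 had 602 normalized reads in OTX2low and 960.5 in OTX2high, or 201 and 320.2 per kb. The log2 ratio was -0.67 (95% interval -0.83 to -0.52), which is -0.15 from the median over genes, and the interval holds that median. NEUROG1 thus had fewer H3K4me3 reads in OTX2low by about as much as the typical listed gene. In the authors' deposited table its ratio over IgG was 27.01 in OTX2low and 52.95 in OTX2high. No H3K27me3 peak lay within 5 kb of it.

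Farther out, a second region at chr5:135542201-135546200 had 176 normalized reads in OTX2low and 465 in OTX2high. It began between 5 and 10 kb from NEUROG1, ended just past 10 kb and lay in no annotated gene of the table. Its log2 ratio was -1.41 (-1.68 to -1.14), so its interval lay below both that of the NEUROG1 region and the median over genes. It was looked at after the values were seen.

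NEUROG2, which drives cortical and spinal neurogenesis, carried both marks, mostly over the same bases in the list labelled OTX2high. Its main H3K4me3 peak spanned the start, from -1173 to 2057 bases in OTX2low and from -1430 to 2028 in OTX2high, with pileups of 71 and 129. Of the 4791 bp under H3K4me3 in either condition, 18.7% lay under H3K27me3 in the list labelled OTX2low and 88.6% in the list labelled OTX2high. H3K27me3 covered 20.9% of the window in the list labelled OTX2low, in 15 peaks none wider than 467 bp. It covered 86.4% in the list labelled OTX2high, in 12 peaks of which the widest had 3122 bp. The fragment length estimated by the peak caller was 78 bp for the list labelled OTX2low and 169 bp for the list labelled OTX2high, and peak width depends on it.

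No H3K4me3 region of NEUROG2 was listed as differential. Its H3K27me3 was listed, at chr4:112506001-112531000, with 1495 normalized reads in OTX2low and 1042 in OTX2high, or 59.8 and 41.7 per kb. The log2 ratio was 0.52 (0.40 to 0.64), 0.19 above the median over genes, and its interval lay above that median. The ratio of ChIP over IgG reads in the authors' deposited table, by its own condition names, was 5.63 in OTX2low and 3.44 in OTX2high. The 25000 bp region also takes in the non-coding genes NEUROG2-AS1, LOC124900760 and RPL23AP94, and the H3K4me3 peak overlaps the first 2 of these, so their marks cannot be told apart from those of NEUROG2.

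NEUROG3, the neurogenin of pancreatic endocrine progenitors, lay in an H3K27me3 domain. H3K27me3 peaks covered 51.7% of its window in the list labelled OTX2low and 93.3% in the list labelled OTX2high, with highest pileups of 15 and 34. A single peak of 7991 bp in the list labelled OTX2high ran across the gene. H3K4me3 was called in OTX2high alone, as 2 weak peaks with pileups of 13 and 12 inside the gene, all 617 bp of it under H3K27me3. Only 11.8% of the H3K4me3 peaks of OTX2high had a lower pileup than the stronger of these. The OTX2low library had fewer tags, and no NEUROG3 region was listed as differential for either mark, so no difference between conditions was detected at this depth. The lncRNA LOC101929021 overlaps this window.

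NEUROD1, needed in mice for cerebellar granule neurons and pancreatic beta cells, had a broad H3K4me3 domain at its start. The widest peak measured 4774 bp in OTX2low and 5071 bp in OTX2high, with pileups of 60 and 136. The listed region at chr2:181678801-181681300, from -783 to 1716 bases around the start, had 474 normalized reads in OTX2low and 767 in OTX2high. Per kb these were 189.5 and 307. The log2 ratio was -0.70 (-0.87 to -0.52), -0.17 from the median over genes, and the interval just holds that median. In the authors' deposited table the ratio over IgG was 23.8 in OTX2low and 33.7 in OTX2high. NEUROD1 and NEUROG1 thus had like differences and neither had H3K27me3. Among genes with H3K4me3 in both conditions and no H3K27me3, 4.24% had H3K4me3 higher in OTX2low and 64.1% higher in OTX2high.

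NEUROD2, a factor of maturing cortical and cerebellar neurons, was the member with strong H3K4me3 that was higher in OTX2low. The region at chr17:39603801-39608500 covered nearly the whole gene and had 1241 normalized reads in OTX2low and 621 in OTX2high, or 264 and 132 per kb. That is 1.997-fold (1.82 to 2.20) higher in OTX2low, a log2 ratio of 1.00 (0.86 to 1.14), and 1.52 above the median over genes. The ratio over IgG in the authors' deposited table was 39.7 in OTX2low and 17.9 in OTX2high. In OTX2low it held the most H3K4me3 reads per kb of the family's listed regions, while in OTX2high it was below NEUROD1, NEUROG1 and the BHLHE22 region at the gene.

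The main H3K4me3 peak of NEUROD2 was wider in OTX2low. It ran from -736 to 3172 bases around the start in OTX2low, a width of 3909 bp. In OTX2high it ran from -518 to 1732 bases, a width of 2251 bp. The pileup at its summit was 117 in OTX2low and 138 in OTX2high, each on the scale of its own list. The wider peak was in the library with fewer tags. A second H3K4me3 peak stood downstream, beyond the gene, at 3210 bp and a pileup of 42 in OTX2low and at 1530 bp and a pileup of 62 in OTX2high.

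H3K27me3 at NEUROD2 was highest downstream of the gene, where that second H3K4me3 peak stood, with pileups of 17 in the list labelled OTX2low and 40 in the list labelled OTX2high. Of the 5447 bp under H3K4me3 in either condition, 16.9% lay under H3K27me3 in the list labelled OTX2low and 62.4% in the list labelled OTX2high, in which 1 peak spanned 7887 bp. The upstream 250 bases held none in either list. The listed H3K27me3 region, chr17:39586001-39609000, had 1465 normalized reads in OTX2low and 1141 in OTX2high, or 63.7 and 49.6 per kb. This region of 23000 bp ran from -1080 to 21919 bases around the start of the 4153 bp gene and also takes in LOC105371771. Its log2 ratio of 0.36 (0.25 to 0.48) was 0.03 above the median over genes, and the interval holds that median. Both marks were thus higher in OTX2low in listed regions that overlap NEUROD2, with H3K4me3 far from its median and H3K27me3 at it. Most of the H3K27me3 region lies downstream of the gene, so its difference cannot be placed at the gene itself. Among the genes with peaks in all 4 lists, 16.7% had H3K4me3 higher in OTX2low and 28.4% higher in OTX2high.

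A further H3K4me3 region near NEUROD2 went the other way. At chr17:39617701-39619700, in no annotated gene of the table, it had 239 normalized reads in OTX2low and 367 in OTX2high. It began just within 10 kb of the gene, and most of it lay beyond 10 kb. Its log2 ratio was -0.62 (-0.87 to -0.37), with the median over genes inside the interval. With a flank of 10 kb in place of 5 kb, an overlap of at least 1 bp was enough to bring this region in. NEUROD2 then held regions of both directions, and 1 gene of the family was higher in OTX2low in place of 2.

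NEUROD4, a factor of retinal and hindbrain neurons in mice, had a listed H3K4me3 region with few reads. The region at chr12:55023401-55024500 had 18.8 normalized reads in OTX2low and 1.6 in OTX2high, which are 15 and 2 whole reads. The ratio was 11.8-fold (2.74 to 106) higher in OTX2low, and the adjusted p in the authors' deposited table was 0.00154. It lay from 3427 to 4526 bases after the start, outside every H3K4me3 peak, and covered an end of the lncRNA LOC101927484. Its ratio over IgG in the authors' deposited table was 1.65 in OTX2low and 0.19 in OTX2high. With a floor of 50 normalized reads NEUROD4 had no listed region. H3K27me3 covered 1.35% of its window in the list labelled OTX2low, in 2 peaks, and 13.2% in the list labelled OTX2high, in 10 peaks of at most 628 bp. One of these 10 covered its upstream 250 bases.

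BHLHE22, which in mice marks subtypes of retinal and spinal interneurons, had H3K4me3 at the gene and again before it. The widest peak, over its lower-coordinate end, measured 3378 bp in OTX2low and 3304 bp in OTX2high, with pileups of 66 and 113. The region there, chr8:64579301-64580800, had 207 normalized reads in OTX2low and 307 in OTX2high, a log2 ratio of -0.57 (-0.84 to -0.30). The farther region, chr8:64574701-64576600, had 143 normalized reads in OTX2low and 249 in OTX2high, a log2 ratio of -0.80 (-1.12 to -0.49). They lay -0.05 and -0.28 from the median over genes, and both intervals hold it. In the authors' deposited table the ratio over IgG at the gene was 33.6 in OTX2low and 37 in OTX2high, a log2 ratio of -0.14 and so nearer to 0 than that of the reads. At the farther region it was 9.14 in OTX2low and 21.9 in OTX2high, or -1.26. The authors' deposited table of clusters joined these 2 regions into 1 cluster with an enrichment of 31.5 and an adjusted p of 0.00748.

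H3K27me3 at BHLHE22 went in the opposite direction. The region chr8:64568001-64587000 had 437 normalized reads in OTX2low and 284 in OTX2high, or 23.02 and 14.92 per kb. Its log2 ratio of 0.63 (0.40 to 0.85) was 0.30 above the median over genes, and the interval lay above that median. H3K27me3 peaks were called in the list labelled OTX2high alone, 5 in number with a highest pileup of 22, and covered 29.4% of the H3K4me3 bases. The H3K4me3 regions are shared with BHLHE22-AS1 and LOC124900252, and the H3K27me3 region also reaches CYP7B1, so these genes cannot be told apart.

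**Figure D4:**
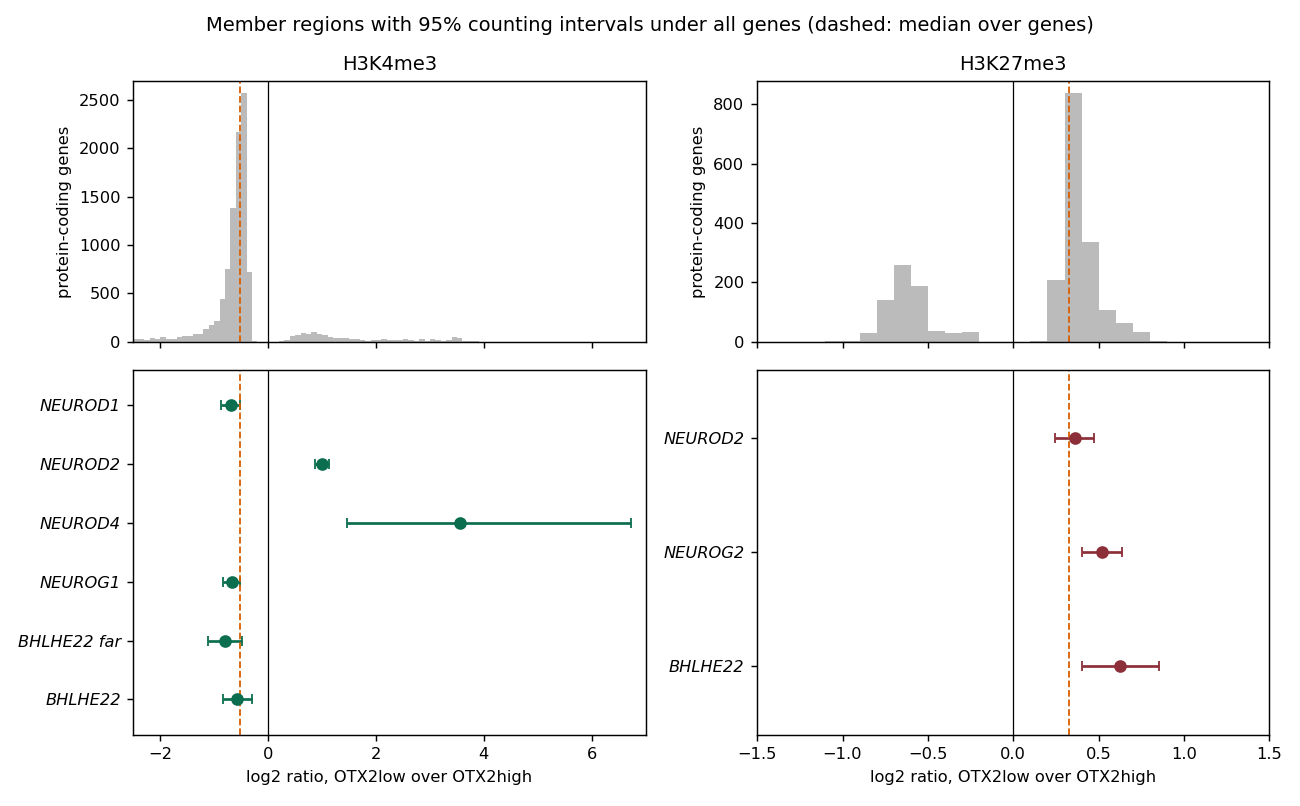
Log2 ratios of OTX2low over OTX2high (horizontal axis) for the listed regions of the family with 95% counting intervals (lower panels), under histograms of all protein-coding genes with a listed region (upper panels); the dashed line is the median over genes. For H3K4me3, NEUROD2 at 1.00 and NEUROD4 at 3.56 lie right of the median of -0.52 while the others lie near it; for H3K27me3 the 3 genes lie between 0.36 and 0.63 against a median of 0.33.

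In order of H3K4me3 ratio, NEUROD4 (3.56) stood above NEUROD2 (1.00), whose intervals do not overlap. The NEUROD4 value rests on 15 whole reads in OTX2low and 2 in OTX2high, outside every H3K4me3 peak. NEUROD2 had 990 and 779. BHLHE22 (-0.57 and -0.80), NEUROG1 (-0.67) and NEUROD1 (-0.70) followed, and these neighbours do not differ beyond their counting intervals. For H3K27me3, the intervals of BHLHE22 (0.63) and NEUROG2 (0.52) overlap, as do those of NEUROG2 and NEUROD2 (0.36). In normalized H3K27me3 reads per kb, NEUROD2 and NEUROG2 held more than BHLHE22 in both libraries.

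The wider pathway was described with lists of related genes. Among 13 other neural bHLH genes, H3K4me3 was higher in OTX2low at 2, higher in OTX2high at 3 and not listed at 8, beside 6.37% and 43.5% of all genes in these directions, with a median log2 ratio of -0.56 over 5 genes. The 2 were NHLH1, a bHLH factor of newborn neurons, and OLIG2, a factor of motor neuron and oligodendrocyte progenitors. NHLH1 had 2154 normalized reads in OTX2low and 98.1 in OTX2high, 21.9-fold higher in OTX2low. OLIG2 had 1023 normalized reads in OTX2low and 362 in OTX2high, 2.82-fold higher in OTX2low. PTF1A, which specifies cerebellar GABAergic neurons, had 51.4 normalized reads in OTX2low and 103 in OTX2high, 2.00-fold higher in OTX2high. H3K27me3 was higher in OTX2low at 5 of the 13, beside 7.7% of all genes, with a log2 ratio of 0.45 at ASCL2, an achaete-scute-like bHLH factor. Among all genes with a listed H3K27me3 region, 66.5% were higher in OTX2low.

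At the partners and inhibitors, no gene differed by 2-fold or more in H3K4me3. Of the 3 E proteins that dimerize with proneural factors, TCF3 was higher in OTX2high and TCF4 and TCF12 were mixed, with a median log2 ratio of -0.40. Recentring left 0 of the 3 higher in OTX2high. Of 11 inhibitors and repressors, 5 were higher in OTX2high (HES1, HES5, HES6, ID1 and ID3), 1 was higher in OTX2low (HEY1) and 2 were mixed (ID2 and REST), with 43.5% of all genes higher in OTX2high and 6.37% higher in OTX2low. Their median was -0.65 over 8 genes. After recentring, 2 were higher in OTX2low, HEY1 and ID3. H3K27me3 at HEY2, a Notch effector, had a log2 ratio of 0.43 with 321 normalized reads in OTX2low and 238 in OTX2high. At HEY1, also a Notch effector, the H3K27me3 region lay outside every peak and had the opposite sign, with 244 normalized reads in OTX2low and 329 in OTX2high and a log2 ratio of -0.43.

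Targets and followers of proneural factors, 26 genes that act in or after neuronal commitment, lay mostly above the median over genes. H3K4me3 was higher in OTX2low at 9, higher in OTX2high at 8 and mixed at 6, and 3 had no listed region. Over all genes 6.37% were higher in OTX2low and 43.5% higher in OTX2high. Their median log2 ratio was 0.73 over 22 genes, against -0.52 for all genes with a listed region. It was 0.67 over 23 genes with EBF2, which had 0 reads in OTX2low, at its bound. In all, 9 were at least 2-fold higher in OTX2low in their region with the most reads, beside 5.33% of all genes. Of these 9, ELAVL4, CBFA2T2 and TUBB3 were mixed. Another 3 were at least 2-fold higher in OTX2high (DLL1, SRRM4 and EBF2), beside 7.42%, none with more than 89.4 normalized reads in either library. SRRM4 was mixed, and the EBF2 region lay outside every H3K4me3 peak. Of 23, 17 lay above the median over genes. These genes were grouped with results of these libraries known, and the list has no test of its own.

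The largest H3K4me3 ratios among them were at neuronal RNA-binding, cytoskeletal and Notch-modifying genes. ELAVL4, a neuronal RNA-binding protein, had 181 normalized reads in OTX2low and 14.4 in OTX2high, 12.6-fold higher in OTX2low, though a second region of it went the other way. MFNG, a fringe enzyme that modifies Notch, had 325 normalized reads in OTX2low and 43.9 in OTX2high, 7.40-fold higher in OTX2low. RBFOX3, a splicing factor known as NeuN, had 409.9 normalized reads in OTX2low and 84.6 in OTX2high, 4.85-fold higher in OTX2low. DCX, a microtubule protein of migrating neurons, was 4.04-fold higher in OTX2low, with 493 and 122 normalized reads in OTX2low and OTX2high. The corepressors CBFA2T3 and CBFA2T2 were 3.41-fold and 2.85-fold higher in OTX2low, CBFA2T2 with a further region of the opposite direction.

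H3K27me3 of this list was higher in OTX2low at 7 genes and higher in OTX2high at 1, beside 7.7% and 3.6% of all genes. Among all genes with a listed H3K27me3 region, 66.5% were higher in OTX2low. The gene higher in OTX2high was ELAVL4, with a log2 ratio of -0.68, from 163 normalized reads in OTX2low and 261 in OTX2high. This sign was opposite to that of its H3K4me3 region with the most reads, but its H3K4me3 regions were mixed. EBF1, an early B-cell factor family member active in migrating neurons, had an H3K27me3 log2 ratio of 0.62, and DLL1, a Notch ligand switched on by proneural factors, one of 0.59. EOMES, a factor of intermediate progenitors and unipolar brush cells, had an H3K27me3 log2 ratio of 0.47, and EBF3 one of 0.41. H3K4me3 was higher in OTX2high at EBF1, DLL1 and EOMES, and EBF3 had no listed H3K4me3 region.

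**Figure D5:**
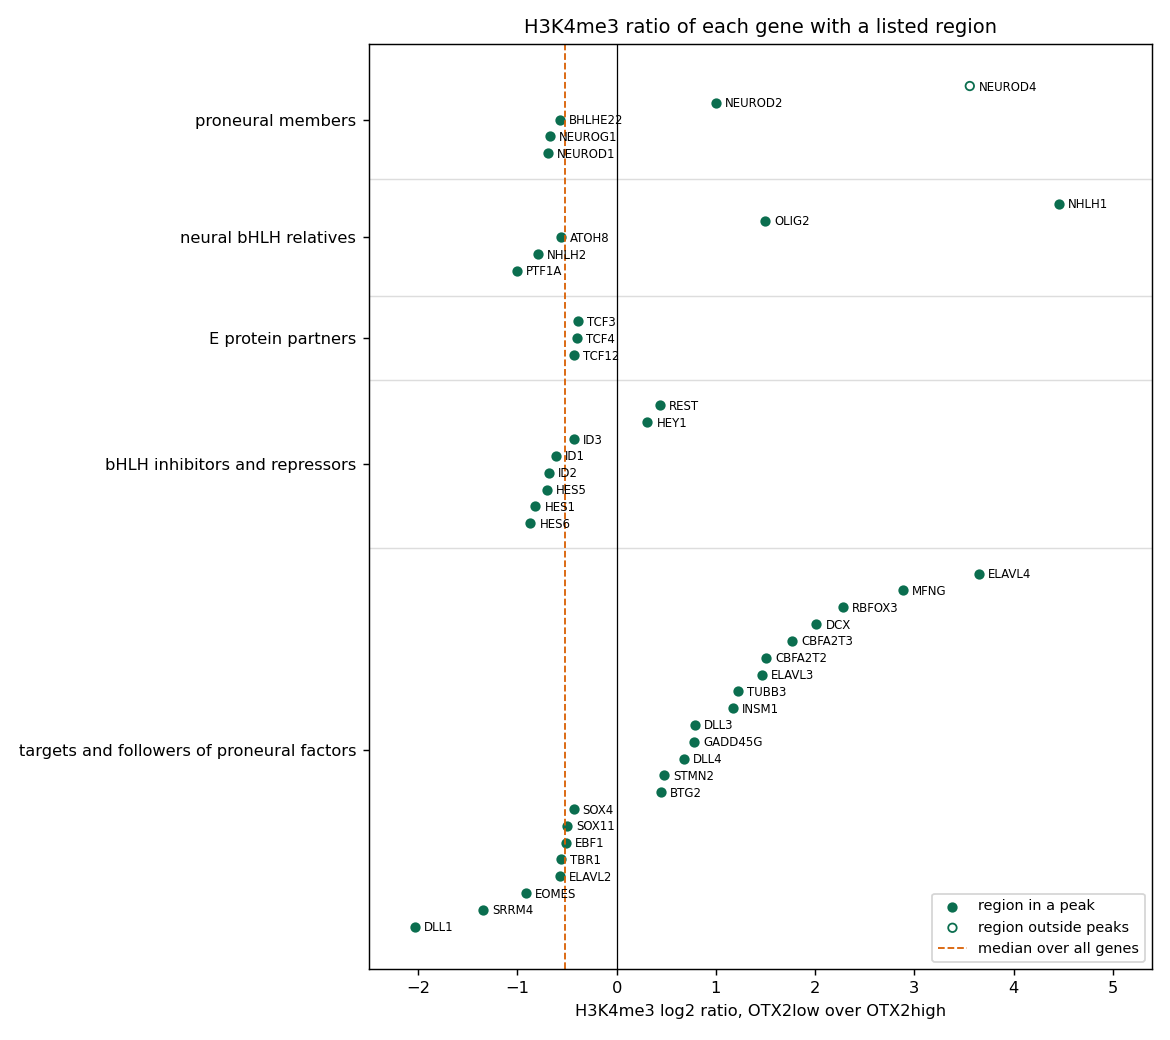
H3K4me3 log2 ratio of OTX2low over OTX2high (horizontal axis) for each gene with a listed region, in the family and 4 related lists. Each point is the region of a gene with the most reads, and an open point lies outside every peak. The dashed line is the median over all genes with a listed region. Points of targets and followers run from DLL1 at -2.03 to ELAVL4 at 3.65, while the 3 E proteins stay between -0.43 and -0.40; EBF2, with 0 reads in OTX2low, is not drawn.

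Genes with the most similar peak heights were found for the 4 members with a peak in at least 1 list of each mark, by Euclidean distance over log2(1 + highest pileup) in the 4 lists. For NEUROD2 they included LOC124904409 (distance 0.23) and NOTCH2NLB (0.26). For NEUROG2 they were RDH13, CDC42EP5 and NLRP6, each at 0.17. For NEUROG3 they were VENTX (0.11), CYP2A6 (0.13) and PAX7 (0.14). For BHLHE22 they were its neighbour LOC124900252, which shares the same peaks (distance 0), MDK (0.074) and SORCS1 (0.098). H3K4me3 of NOTCH2NLB was higher in OTX2high, and that of NEUROD2 higher in OTX2low.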

How the data were processed

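H3K4me3 and H3K27me3 were profiled by ChIP-seq in 1 library per mark and condition, with 2 IgG libraries. The submitters' processing notes name Bowtie2 (2.3.3.1), the build GRCh38 and MACS2 (2.1.1.20160309). Each library was called alone against 1 IgG library at a q-value of 0.05, per the file headers. The deposited peak lists give a pileup signal, a fold enrichment (a ratio over local background) and a −log10 q-value, which the authors' caller computed for each peak. Differential regions came from a G-test between single libraries in diffReps (1.55.6), per the file headers. Windows were 1000 bp in steps of 100 bp for H3K4me3 and 10000 bp in steps of 1000 bp for H3K27me3. The deposited columns are a read signal scaled per library, a ratio over IgG, a log2 ratio of OTX2high over OTX2low, and the authors' adjusted p-value. That p-value compares 2 libraries, not conditions. The authors' cluster table gives an enrichment ratio and a score that counts regions.

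For H3K4me3, 1 read was worth 1.25 in OTX2low and 0.798 in OTX2high. Division gave whole reads within 0.05 for 100% of values, and a G-test on them called 21714 of 21714 regions, which the authors had already selected by that test. For H3K27me3, 1 read was worth 0.875 and 1.14, with 100% whole. Intervals at 95% are exact conditional (Clopper-Pearson) intervals of the log2 ratio from these reads, checked on simulated data. A gene has a direction when all its listed regions share it, and is mixed otherwise. Its value is that of the region with the most reads. All 8 members are named. From related lists, genes are named with H3K4me3 at 2-fold or more and at least 50 normalized reads in the higher library, or with an H3K27me3 log2 ratio of at least 0.4 in a peak, at most 6 per list and mark. Genes named beyond this rule to account for a small count were chosen after their values were seen. Some genes that the rule names are not reported here. The members and lists were chosen with earlier results of these data known. Sequences are from RefSeq GRCh38.p14, read on both strands for motifs. Alternatives were flanks of 2 and 10 kb, summed regions, recentring, read and peak filters, IgG ratios, swapped H3K27me3 names and stricter peaks. Recentring of the related lists, the G-test and the background of short genes were added after seeing the data. Python 3.11.15, numpy 2.4.6, pandas 2.3.3, scipy 1.17.1 and matplotlib 3.10.9 were used.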

Additional observations from a re-analysis of the deposited data

How the results depend on the processing

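Of 149 recomputed values, 123 stayed as reported, 23 moved and 3 reversed, and 54 of 57 recomputed log2 ratios of the family kept their sign. This tally is a weak check. A log2 ratio is that of the gene's region with the most reads, so a changed flank, a filter or summing often returned the same number. The G-test was run on regions already selected by it, and swapping the H3K27me3 names reverses signs by construction. The 3 that reversed are the H3K27me3 ratios under the conditions of the sample labels, at -0.36 for NEUROD2, -0.52 for NEUROG2 and -0.63 for BHLHE22. The counts then become 0 genes higher in OTX2low and 3 higher in OTX2high. H3K4me3 was higher in OTX2low at 1 gene in place of 2 with a flank of 10 kb (NEUROD2 then holds both directions), with at least 50 normalized reads, and with regions in a peak, both of which remove NEUROD4. The list labelled OTX2low had H3K27me3 at 1 gene at a −log10 q-value of at least 10. With a flank of 2 kb, 1 neural bHLH relative was higher in OTX2high. Recentring left 0 E proteins and 4 targets higher in OTX2high and 2 inhibitors higher in OTX2low. No paired analysis was possible because each mark and condition had 1 library, and no library could be left out. The H3K4me3 ratio of BHLHE22 at the gene was -0.14 when taken over IgG. The weak H3K4me3 peaks of NEUROG3 were called in the library with more tags, and the part of depth in this was not tested.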
